A study of Caenorhabditis elegans with 2 samples.

Results

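The genes described here are 8 genes of *Caenorhabditis elegans* that encode subunits of the chromatin remodellers NURF and NuRD/MEC, namely nurf-1, isw-1, let-418, chd-3, hda-1, mep-1, lin-40 and egl-27. They were taken by name out of 19973 protein-coding genes, and every listed region with its summit inside one of them or within 2 kb was collected. The material was chromatin of whole hermaphrodites at the L4 larval stage, from strain OP248, in which MES-2 carries GFP and FLAG at its C terminus. Chromatin was sheared by sonication and precipitated with an antibody against GFP. The samples are biological replicates 1 and 2 of this 1 group, and the labels say no more about separate cultures. Where in the genome the tagged mes-2 copy lies is not stated in the labels.

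MES-2 corresponds to the fly protein Enhancer of zeste and is the subunit of Polycomb repressive complex 2 that methylates histone H3. NURF slides nucleosomes with the ISWI-type ATPase ISW-1, and NURF-1, the counterpart of mammalian BPTF, is its large scaffold subunit. The gene nurf-1 is known for several transcript starts that give N-terminal and C-terminal forms of the protein. NuRD couples a Mi-2 ATPase, LET-418 or its paralog CHD-3, to the histone deacetylase HDA-1 and to the MTA-type subunits LIN-40 and EGL-27. In the MEC complex LET-418 works with HDA-1 and the zinc-finger protein MEP-1, which is known for keeping germ-line genes silent in somatic cells.

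The regions came from 4 lists on ce11: the authors' thresholded list of 5501 regions, an unthresholded list from the pooled reads of both replicates, and an unthresholded list for each replicate, the last 3 with 30000 regions each. A region's signal is the authors' own value, and rank 1 is the strongest region of its list. No source used here gives the scale of the signal, so it was ranked only within a list. The thresholded list held the 5501 pooled regions of highest signal, so its lower limit was a signal of 73.5, its median 140 and its maximum 2503. Depth is unknown because the lists hold no read counts. No control sample was analysed here. In whole worms, binding in fewer cells and less binding per cell cannot be told apart.

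Of the 8 genes, 7 had a thresholded summit inside the gene or within 2 kb, where 6351 of all 19973 genes (31.8%) had one. The exception was let-418. Within 500 bp of one of their own transcript starts, 4 of the 8 genes had a summit (nurf-1, isw-1, mep-1 and egl-27), against 3305 of all genes (16.5%). With 16 annotated starts at nurf-1 and 14 at egl-27, each of these had more windows than a gene with 1 start. Neither had a summit within 500 bp of its outermost start, and counting that start alone left 2 of the 8 genes. The share of all genes was not matched for the number of starts. All 8 had a region in the pooled list, where 10436 of all genes (52.3%) had one. The 7 genes shared out 37 thresholded regions unevenly, with 15 at nurf-1, 12 at egl-27, 3 each at mep-1 and lin-40, 2 at chd-3 and 1 each at isw-1 and hda-1. Of the 37 summits, 22 lay inside the genes, 13 upstream and 2 downstream.

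The sequences under the strongest thresholded summits are shown because they carry the values that follow, with the 2 strongest for nurf-1. For chd-3 the shown region is the stronger of a weak pair. Each runs 100 bases either side of the summit on ce11 (WBcel235, RefSeq), 5′ to 3′ on the strand of the gene. Capitals mark the dinucleotide CG and the letters GAGAGA or their complement TCTCTC.
nurf-1 chrII:14399668-14399868 (plus strand): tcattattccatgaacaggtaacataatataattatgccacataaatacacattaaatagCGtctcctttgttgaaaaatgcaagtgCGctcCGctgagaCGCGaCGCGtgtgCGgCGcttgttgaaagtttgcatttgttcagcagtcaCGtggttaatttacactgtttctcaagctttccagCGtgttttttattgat
nurf-1 chrII:14390110-14390310 (plus strand): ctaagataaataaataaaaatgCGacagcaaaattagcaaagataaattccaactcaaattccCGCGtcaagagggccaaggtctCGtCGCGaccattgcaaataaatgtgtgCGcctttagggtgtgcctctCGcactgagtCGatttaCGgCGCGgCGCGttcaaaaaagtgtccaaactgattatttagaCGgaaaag
isw-1 chrIII:6710072-6710272 (minus strand): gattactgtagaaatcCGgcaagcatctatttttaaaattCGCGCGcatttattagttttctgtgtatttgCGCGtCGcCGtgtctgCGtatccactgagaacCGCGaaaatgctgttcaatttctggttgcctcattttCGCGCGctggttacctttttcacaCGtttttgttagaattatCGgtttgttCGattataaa
chd-3 chrX:12853033-12853233 (minus strand): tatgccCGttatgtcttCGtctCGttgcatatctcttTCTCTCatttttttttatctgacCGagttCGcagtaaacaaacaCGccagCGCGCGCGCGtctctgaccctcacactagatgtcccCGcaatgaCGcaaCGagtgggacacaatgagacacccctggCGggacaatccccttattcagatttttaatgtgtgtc
hda-1 chrV:14524316-14524516 (plus strand): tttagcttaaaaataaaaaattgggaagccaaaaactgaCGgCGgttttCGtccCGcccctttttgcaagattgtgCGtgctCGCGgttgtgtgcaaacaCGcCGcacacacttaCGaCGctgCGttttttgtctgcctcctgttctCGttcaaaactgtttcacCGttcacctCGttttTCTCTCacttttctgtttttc
mep-1 chrIV:11522712-11522912 (plus strand): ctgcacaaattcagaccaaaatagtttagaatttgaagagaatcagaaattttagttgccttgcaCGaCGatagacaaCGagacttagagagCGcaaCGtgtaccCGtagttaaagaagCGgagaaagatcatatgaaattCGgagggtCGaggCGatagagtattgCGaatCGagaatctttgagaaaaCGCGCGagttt
lin-40 chrV:3703944-3704144 (plus strand): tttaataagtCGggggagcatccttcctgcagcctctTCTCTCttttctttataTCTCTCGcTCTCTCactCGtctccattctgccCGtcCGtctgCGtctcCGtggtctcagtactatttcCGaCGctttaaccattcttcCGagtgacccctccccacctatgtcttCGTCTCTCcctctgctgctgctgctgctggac
egl-27 chrII:6842684-6842884 (plus strand): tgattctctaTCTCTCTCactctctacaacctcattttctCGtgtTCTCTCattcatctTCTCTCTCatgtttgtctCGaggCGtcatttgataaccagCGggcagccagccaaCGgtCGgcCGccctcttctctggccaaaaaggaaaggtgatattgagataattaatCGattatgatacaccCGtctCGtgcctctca
CG dinucleotides stood in all of these windows, with between 10 and 17 in each. For windows of the same width, the median was 11 at the 37 thresholded summits of the genes and 10 at all 5501 thresholded summits. The isw-1 window held 17 and the egl-27 window 10. GAGAGA or TCTCTC occurred in 4 non-overlapping copies in the lin-40 window, in 3 in the egl-27 window, and once each in those of hda-1 and chd-3. The windows of nurf-1, isw-1 and mep-1 held none.

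**Figure D1:**
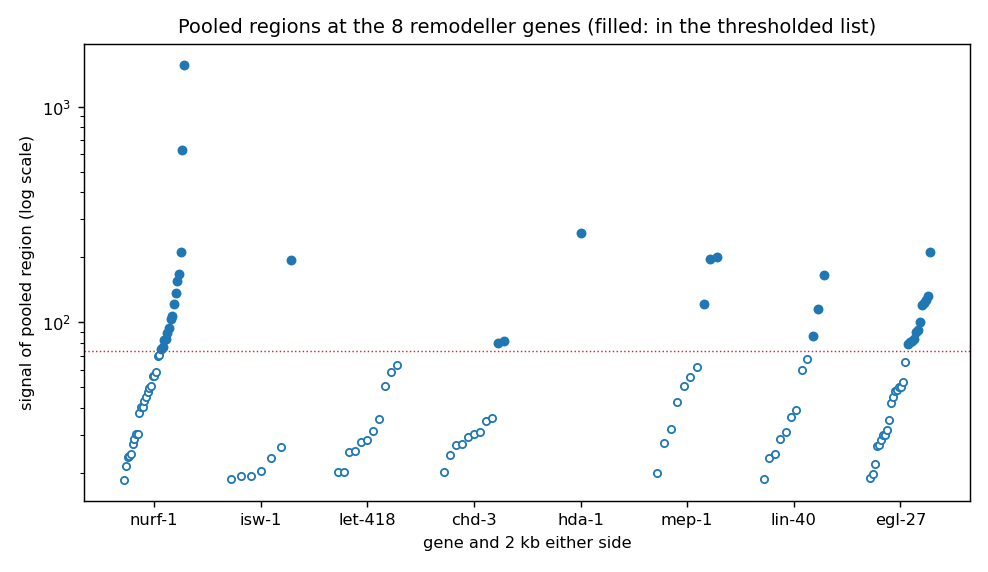
Signal (log scale) of every pooled region with its summit in each of the 8 genes or within 2 kb, sorted within a gene; filled points are in the thresholded list and the dotted line is its lowest signal, 73.5. Of the genes shown, nurf-1 alone has regions above the 259 of hda-1, and all 11 points of let-418 lie below the line.

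The scaffold gene nurf-1 (WBGene00009180, chrII:14390713-14407911, plus strand, 17199 bp) had more thresholded summits than any other of the 19973 genes, counting 2 kb flanks. It had 15, and egl-27 came next with 12, the only 2 genes of all 19973 (0.01%) with 12 or more. The first nurf-1 start lies 2259 bp after the end of mes-2, the tagged gene. The part of that locus in the nurf-1 count was not tested. Without flanks nurf-1 had 12 summits and egl-27 had 8, and the genes were not ranked on that count. Both are long, and of the 998 genes of at least 10 kb 492 (49.3%) had any thresholded summit, with a mean of 1.04 and a maximum of 15. That class includes nurf-1 and egl-27, and its maximum is nurf-1 itself. The order depended on the threshold, since in the pooled list nurf-1 was one of 3 genes tied at place 6 with 37 regions, and egl-27 was at place 18 with 30.

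The strongest nurf-1 region (chrII:14399672-14399870) had a signal of 1563 and rank 29 of 5501. Its rank was 74 in replicate 1, with a replicate signal of 699, and 10 in replicate 2, with a replicate signal of 815. The summits of the replicates, at 14399768 and 14399770, were 2 bp apart. The summit lies in an intron, 284 bp upstream of an internal start at 14400052 (transcript F26H11.2r.3) and 139 bp from the microRNA gene cel-mir-5595, which is annotated on the minus strand.

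The second nurf-1 region (chrII:14390128-14390322) had a signal of 627 and rank 304. Its ranks in the replicates were 303 and 273, closer than for the strongest region. Its summit at 14390210 is intergenic, 503 bp upstream of the first nurf-1 start and 132 bp from the start of kbp-3, a kinetochore protein gene that runs the other way. A summit there cannot be assigned to one of these genes.

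The other 13 thresholded nurf-1 regions had signals from 75.4 to 211, far below that pair. The plot of the regions along nurf-1 shows both tall regions at the same positions in the pooled list and in each replicate.

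**Figure D2:**
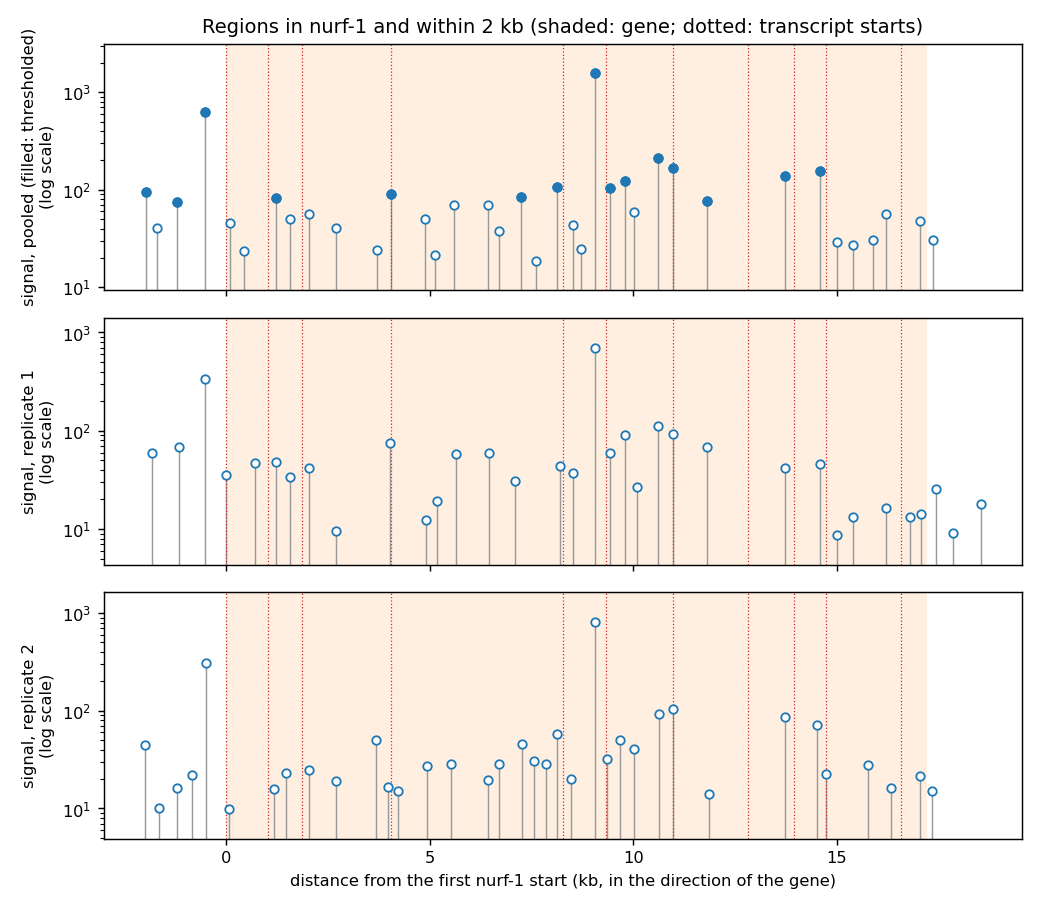
Signal (log scale) of each region against the distance of its summit from the first nurf-1 start (kb), for the pooled list (filled points are thresholded), replicate 1 and replicate 2; shading marks the gene and dotted lines its transcript starts. The regions of signal 1563 and 627 stand above the rest of the gene in the pooled panel, and both tall summits recur in the replicate panels.

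Mapped to the 16 annotated start positions of nurf-1, which fall into 11 groups when starts within 10 bp are joined, 10 of the 15 summits lay within 500 bp of a start. The closest lay 1 bp from the start at 14394772 (F26H11.2r.1), with a signal of 89.6. The replicates differed here, with rank 2603 in replicate 1 and 16744 in replicate 2, and with summits 45 and 74 bp from the thresholded one, so the 1 bp distance is that of the thresholded summit alone. Next came a summit 14 bp from the start at 14401682 (F26H11.2o.1), with a signal of 167 and ranks 2077 in replicate 1 and 1765 in replicate 2. A second summit near that second start, 366 bp upstream, had a signal of 211, the third highest of the gene.

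Around the internal start group at 14400052 to 14400058, 3 summits lay within 500 bp, which is the highest number for any start group of the gene. They were the region of signal 1563 upstream, one of signal 104 at 76 bp inside and one of signal 122 at 443 bp inside. The transcripts that begin in this group end between 14401121 and 14407847.

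Of the starts in the 3′ part of the gene, those of F26H11.2e.1 and F26H11.2f.1 had their nearest summit upstream. The start at 14404654 (F26H11.2e.1) had a summit of signal 137 at 228 bp upstream, and the start at 14405432 (F26H11.2f.1) had one of signal 156 at 138 bp upstream. Further 5′, the start at 14398991 (F26H11.2r.2) had one of signal 107 at 147 bp upstream. The start at 14391754 (F26H11.2l.1 and F26H11.2m.1) had a summit 197 bp inside, of signal 82.6. This region was weak in replicate 2, at rank 17485, against 4091 in replicate 1.

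No thresholded summit lay within 500 bp of 4 start groups. These were the first group at 14390713, which missed the window by 3 bp, and those at 14392581, 14403527 and 14407276. The start at 14403527 (F26H11.2p.1) had its nearest summit 899 bp inside. The start at 14407276, that of F26H11.2j.1, was 1982 bp from the nearest summit. Starts of nurf-1 are dense in the gene, and whether its summits lie nearer to starts than other positions in it was not tested.

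Of the 15 nurf-1 summits, 6 lay in coding exons, 4 in introns, 4 in 5′ UTR and 1 between genes. One of the coding exons belongs to F26H11.8, whose start is 233 bp from a summit of signal 94.3, and one of the introns to kbp-3. Both summits and the intergenic one are also within 2 kb of the end of mes-2.

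Upstream of nurf-1 lies mes-2, the tagged gene, which ends 2259 bp before it, with the starts of F26H11.8 and kbp-3 in between. A summit at 14383845, upstream of mes-2, had a signal of 1416 and rank 46. Between that summit and the last nurf-1 summit at 14405294 the thresholded list held 17 summits in 21.4 kb, or 0.793 per kb, where all chromosomes together had 0.0549 per kb. The nearest thresholded summits outside this stretch lay 18.4 kb before it and 32.9 kb after it. In 5 kb bins from 10 kb upstream of the first nurf-1 start to 15 kb downstream, the thresholded list had 1, 4, 2, 5 and 5 summits. The mean over 20050 bins of all chromosomes was 0.274, and 276 of them (1.38%) held 3 or more. Replicate 1 had 3, 7, 8, 9 and 7 summits in the same 5 bins, and replicate 2 had 2, 7, 9, 11 and 7. The mean over all bins was 1.496 in each replicate list, and 7 or more summits stood in 2.27% of bins in replicate 1 and 2.68% in replicate 2. The part of the tagged locus and of its neighbourhood in the nurf-1 result was not tested.

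**Figure D3:**
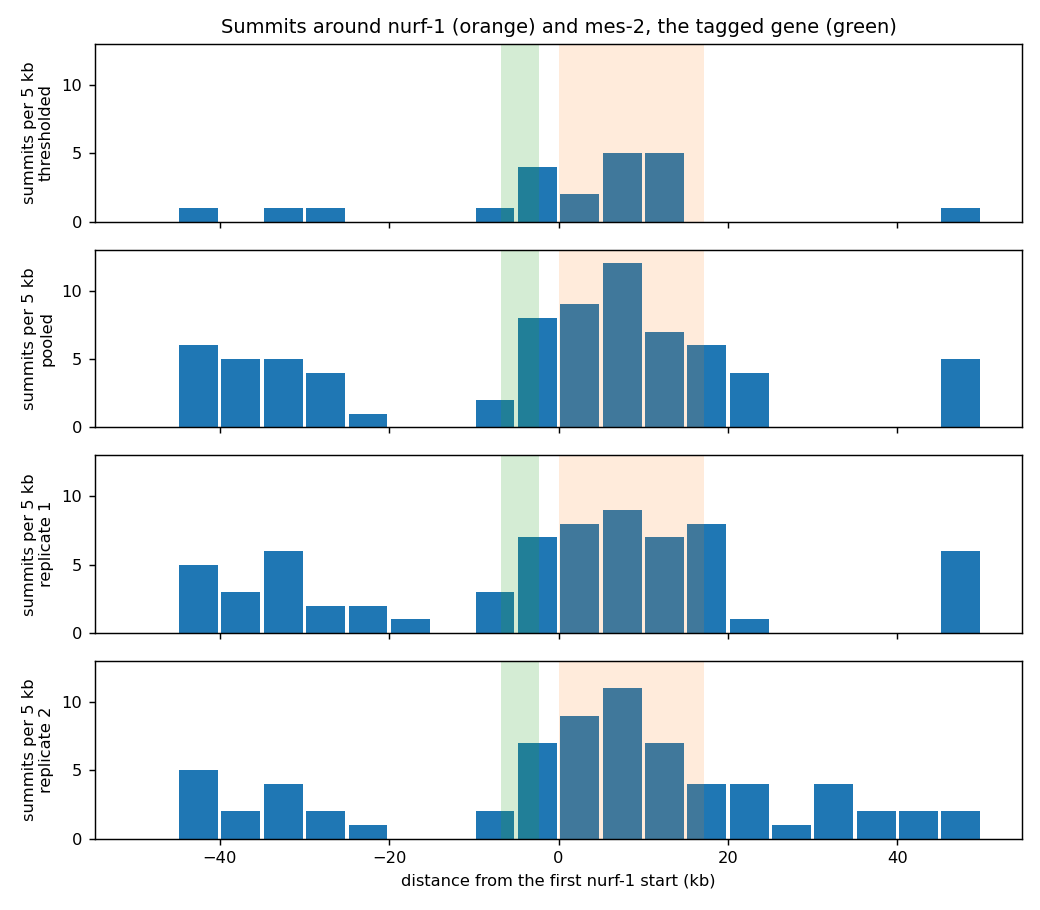
Summits per 5 kb against the distance from the first nurf-1 start (kb) in the thresholded, pooled, replicate 1 and replicate 2 lists, with nurf-1 shaded orange and mes-2 shaded green. The thresholded panel has its highest bins, of 5 summits, inside nurf-1 and is empty from 15 to 45 kb.

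By the ranks of the strongest summit within 500 bp of a start in the replicates, the genes most like nurf-1 were mes-2, rpl-35 and ears-2. The measure was the distance in log2 rank over 2 replicates. It was 0.596 for mes-2, at ranks 80 and 15, and 0.980 for rpl-35, a large ribosomal subunit gene, at ranks 41 and 14. For ears-2 it was 1.01, at ranks 68 and 20, and uncp-18 was tied with it through the same summit.

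The ATPase partner of nurf-1, isw-1 (WBGene00002169, chrIII:6703988-6710100, minus strand), had a single thresholded region, close to its only start. The summit at 6710172 was 72 bp upstream of the start, with a signal of 194 and rank 1924. It ranked 2640 in replicate 1 and 1687 in replicate 2, with summits 17 bp apart. The 6 other pooled regions of isw-1 had signals from 18.8 to 26.6, so the start region stood well apart from the rest of the gene.

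Of the Mi-2 ATPase genes, let-418 (WBGene00002637, chrV:5826833-5832831, plus strand) had no thresholded region. Its highest pooled signal was 63.6, at rank 6568, with the summit 492 bp upstream of the start. A second pooled summit, 105 bp upstream, had a signal of 50.4 and rank 8950, and one downstream of the gene had 58.8 and rank 7306. In replicate 1 the region next to the start was the stronger, at rank 4973 against 10090 for the region further upstream. In replicate 2 the further region was at rank 6243, and the summit nearest to the start, 22 bp inside, was at rank 20269. A region was thus listed near the start in each replicate, but the replicates did not place the stronger summit at the same position.

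The paralog chd-3 (WBGene00000482, chrX:12846439-12852601, minus strand) had 2 thresholded regions, both near the limit of the list. One summit, 532 bp upstream of the start, had a signal of 81.6 and rank 4890, and ranked 9126 in replicate 1 and 6987 in replicate 2. The other, in an intron, had a signal of 79.8 and rank 5014, and ranked 21888 in replicate 1 and 4159 in replicate 2. Neither belonged to the top 5501 regions in both replicates. No source used here says how reads that match both let-418 and chd-3 were counted.

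The deacetylase gene hda-1 (WBGene00001834, chrV:14525389-14527411, plus strand) had 1 thresholded region, with the highest pooled signal of the NuRD and MEC genes among the 8. The signal was 259 at rank 1309, with ranks 1173 and 2422 in the replicates and summits 5 bp apart. In replicate 2 the strongest egl-27 and lin-40 regions ranked above it, at 1136 and 1689. The summit lay 973 bp upstream of the hda-1 start, inside the non-coding gene C53A5.18 and 287 bp from the start of ril-1, which is the nearer protein-coding start. The pooled list held no other region at hda-1.

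The MEC gene mep-1 (WBGene00003218, chrIV:11524642-11527954, plus strand) had 3 thresholded regions, all upstream and all among the strongest 5501 regions of both replicates. The summit nearest to the start, 190 bp upstream, had a signal of 196 and rank 1893, and ranked 1342 in replicate 1 and 3172 in replicate 2. Further out, a summit 710 bp upstream had a signal of 122 and one 1830 bp upstream had 201, the highest of the 3. Those nearest to the start lay in non-coding genes annotated there, and the farthest was intergenic. All 3 ranked higher in replicate 1. Inside the gene, pooled signals did not exceed 62.0, at rank 6795. The replicates differed at that region, with rank 11447 in replicate 1 and 4563, among the strongest 5501, in replicate 2.

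Of the MTA-type genes, lin-40 (WBGene00003025, chrV:3704988-3712796, plus strand) had 3 thresholded regions, none within 500 bp of a start. The strongest, 944 bp upstream, had a signal of 166 and rank 2289, and ranked 3145 in replicate 1 and 1689 in replicate 2. A second, 1781 bp upstream, had a signal of 115. The third, of 86.3, lay in a coding exon near the 3′ end and was outside the strongest 5501 regions of both replicates, at ranks 6526 and 7774.

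The other MTA-type gene, egl-27 (WBGene00001194, chrII:6835008-6847908, plus strand, 12901 bp), carried 12 thresholded regions with no dominant one. Their signals ran from 79.4 to 211 with a median of 96.1, where the 15 of nurf-1 had a median of 107. Per kb of gene and flanks, egl-27 had 0.71 summits and nurf-1 0.708. Genes were not ranked by this density, and the shorter gene W06H8.6, of 5762 bp, had 9 summits. The strongest egl-27 region (chrII:6842684-6842858) had rank 1743, and ranked 2645 in replicate 1 and 1136 in replicate 2, with summits 7 bp apart. It lay in an intron, 380 bp inside the internal start at 6842404 (C04A2.3c.6). The same start had a second summit 212 bp upstream, of signal 123.

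Of the 12 egl-27 summits, 3 lay within 500 bp of an egl-27 start, where 10 of 15 did at nurf-1, and 2 of the 3 belonged to the start at 6842404. The third was 267 bp inside the start at 6835472, of signal 81.5. Introns held 9 of the 12, one of them in tbc-6. Downstream of the gene, a summit of signal 100.3 lay 80 bp upstream of the start of tbc-6, a gene named for its TBC domain, which is nearer to it than any egl-27 start. In the replicates, 9 of the 12 were among the strongest 5501 regions of replicate 1, 7 among those of replicate 2 and 5 among those of both. The intron region at 6839202 ranked 10907 in replicate 1 and 2584 in replicate 2, the widest gap but one in the gene.

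**Figure D4:**
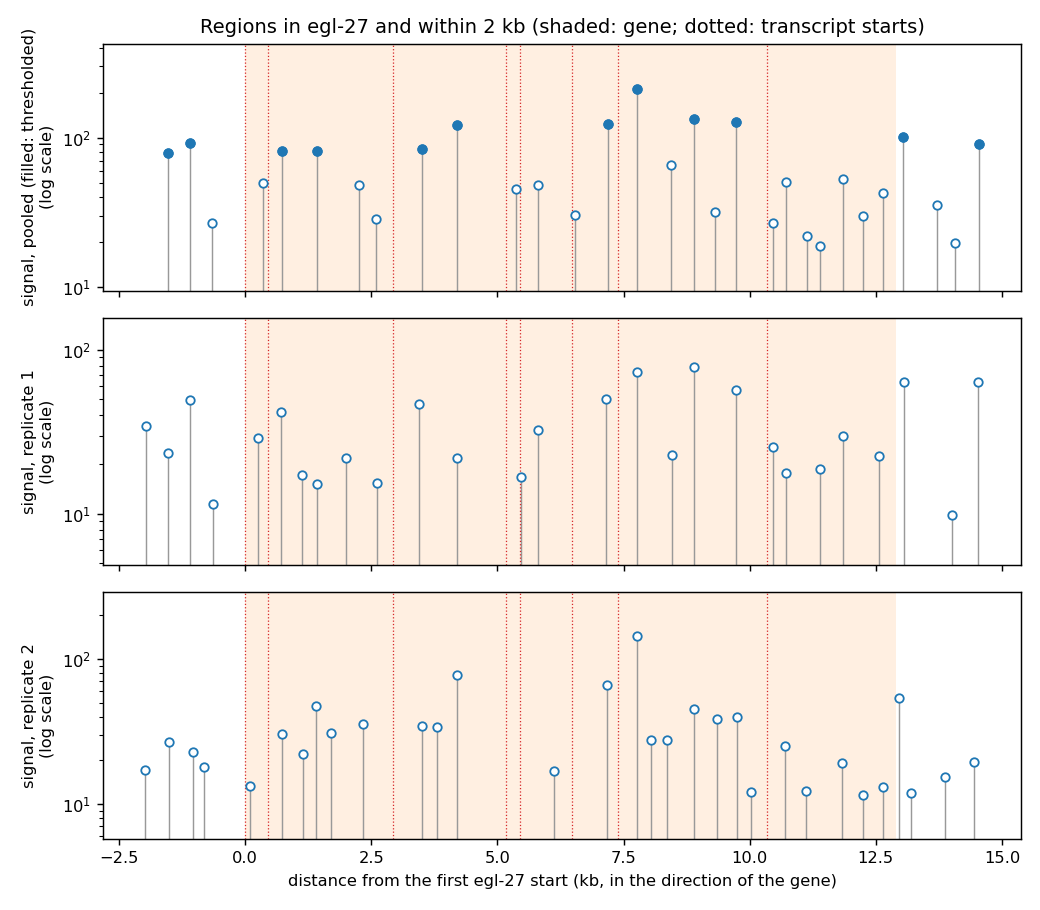
Signal (log scale) of each region against the distance of its summit from the first egl-27 start (kb), for the pooled list (filled points are thresholded), replicate 1 and replicate 2; shading marks the gene and dotted lines its transcript starts. The 12 thresholded regions are spread along the gene between signals of 79.4 and 211.

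Across the 8 genes, all 37 thresholded regions overlapped a region in both replicate lists by at least 1 bp, and 5235 of all 5501 (95.2%) did so. The thresholded regions come from the pooled reads of the same 2 replicates, so such overlap is largely given by construction. Among the strongest 5501 regions of both replicates were 21 of the 37 (56.8%), against 3564 of all 5501 (64.8%). The summits of the replicates were between 1 and 174 bp apart with a median of 27 bp, and 24 of the 37 pairs were within 50 bp. At nurf-1 the median was 55 bp. The ratio of the larger to the smaller rank had a median of 1.86. It ranged from 1.11, for the nurf-1 region of signal 627, to 7.4, for the strongest nurf-1 region. That strongest region was near the top of both lists, at ranks 74 and 10, with replicate summits 2 bp apart. A weak nurf-1 region in a coding exon at 14402517 had a ratio close to 7.4, at rank 2877 in replicate 1 and 20526 in replicate 2. The pooled ranks of the strongest hda-1, isw-1, mep-1, lin-40 and egl-27 regions, between 1309 and 2289, lay closer together than the median ratio of 1.86. Their order is therefore within the spread of the replicates.

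**Figure D5:**
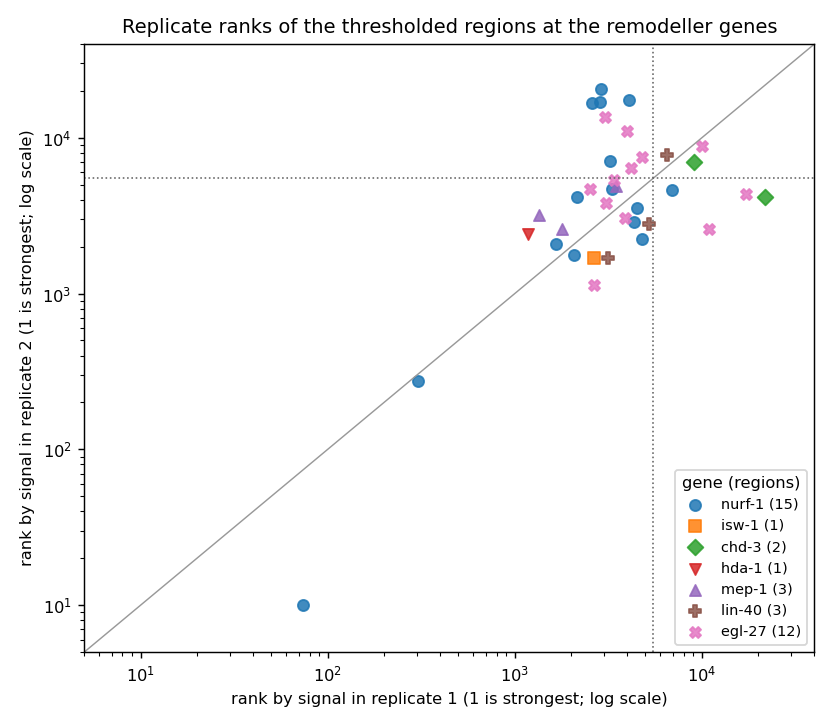
Rank by signal of each of the 37 thresholded regions in replicate 1 against its rank in replicate 2, both on log scales with 1 the strongest; dotted lines mark rank 5501 and the diagonal marks equal ranks. Apart from 2 nurf-1 regions, no point has a rank below 1136 in either replicate, and the chd-3 points lie outside the strongest 5501 of replicate 1.

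By annotation, 8 of the 37 summits (21.6%) lay between genes, against 3150 of all 5501 (57.3%). Introns held 14 (37.8%) against 24.2%, and coding exons 7 (18.9%) against 305 (5.54%). The 5′ UTR held 4 (10.8%), all of nurf-1, against 4.49%, and non-coding genes 4 (10.8%) against 6.44%. These shares depend on the choice of the genes, since the rule collects summits in and around them. Of the 7 coding-exon summits 6 were listed at nurf-1. Within 500 bp of any protein-coding start lay 19 of the 37 (51.4%), against 2871 of all 5501 (52.2%). Of those 19, 15 were near a start of the gene itself and 4 only near a start of another gene.

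In the 201 bp windows around the summits, short motifs were searched as letters on both strands. GAGAGA was found in 15 of 37 windows (40.5%) against 37.8% of all 5501, and TTTGAA in 12 (32.4%) against 32.1%. TTTCCCGC was found in none, where 1.89% of all windows held it, and TTTTCAG in 2 (5.41%) against 10.5%. Any of these stood in 22 windows (59.5%), against 66.3%. In narrower windows of 50 bp either side, TTTGAA was found in 1 of 37 (2.70%) against 15.2%, and any motif in 10 (27.03%) against 41.1%. The windows had a median GC content of 43.8%, against 42.8% for all windows. CG dinucleotides averaged 6.59 in the central 101 bases and 4.95 in the outer 100 at the 37 summits, against 6.17 and 4.07 at all summits.

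Of 10 related genes of the same complexes or families, 8 had a thresholded summit inside the gene or within 2 kb, a share to be read beside the 31.8% of all genes. The highest signal was 883 at rank 152, with replicate ranks 191 and 118, at a summit 242 bp upstream of lin-53, an RbAp46/48-type histone-binding gene. This summit also lay 225 bp from the start of nra-2, and within 2 kb of rba-1, the neighbouring RbAp46/48-type gene. Both lin-53 and rba-1 were counted through the same 2 summits. The other of these had a signal of 163 and lay 74 bp from the start of K07A1.10. The summit listed at hda-3, a class I deacetylase gene, had a signal of 420 but lay 35 bp from the start of rbm-3.2. Upstream of the remodeller ATPase genes chd-7 and chd-1 the signals were 254 and 165, and at mbd-2, a methyl-CpG-binding-domain gene, the signal was 123. The 3 summits at pyp-1, a pyrophosphatase gene counted with NURF, had 161, 117 and 86.1, and those at dcp-66, a p66-type NuRD gene, had 98.4 and 99.97. No thresholded region was listed at hda-2, whose highest pooled signal was 68.6 at rank 5977, and athp-2 had no region in any of the 4 lists.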

How the data were processed

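The authors deposited peak lists in the narrowPeak layout, which per the submitters' file lists were called against a control alignment. The authors' signal (column 7) has no stated scale. The deposited column 9 holds −log10 q-values, at a shared maximum of 3.91 in 4075 of 5501 thresholded regions, so it did not rank them. The deposited column 10 gives the summit offset, and a summit is column 2 plus column 10 plus 1. For the aligner, the caller, their versions and the threshold of irreproducible discovery rate, the value is not given in the sources used here. Of all lists, the 4 ce10 lists were not used: no ce10 genome was at hand and no coordinate was converted.

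Summits were placed on Ensembl release 115 genes of WBcel235 (ce11), and positions are 1-based. Starts are those of all protein-coding transcripts. The members, related genes and motifs were chosen with earlier results of these data known, so counts are descriptions beside all genes or regions, with no p-values. Named are the members, the related genes, mes-2, genes with a start within 500 bp of a listed summit, and the 3 genes most like nurf-1. Other neighbours were named after their values were seen. Python 3.11.15, numpy 2.4.6, pandas 2.3.3 and matplotlib 3.10.9 were used, and the counting functions were tested on simulated data. Alternatives changed flanks, windows, thresholds, replicates, overlap and bins.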

Additional observations from a re-analysis of the deposited data

How the results depend on the processing

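Of 52 alternatives, 49 planned and 3 that left out nurf-1 and were chosen after seeing the data, 34 stayed within 1.5 times the reported value and 18 did not. With no flank, 4 of the 8 genes (7 with 2 kb), 22 summits in them (37 with 2 kb) and 1 of the related genes (8 with 2 kb) remained, as a smaller search space must give. A window of 1000 bp around starts gave 7 genes instead of 4, and the outermost start alone gave 2. For neither setting is a share of all genes given. The stronger 2750 thresholded regions left 11 of the 37 summits, a pooled list of 17622 regions whose −log10 q reached 2 gave 79, and leaving out nurf-1 left 22. Of the nurf-1 summits, 5 rather than 10 were within 500 bp upstream of a start. Summits of the replicates within 50 bp of the thresholded summit left 24 of 37 regions shared. The highest density at nurf-1, 1 thresholded summit per kb in 5 kb bins, was 2 in 2 kb bins and 2.4 in the pooled list. For windows of 50 bp either side, 10 rather than 22 held a motif (27.03%, against 41.1% of all windows), and TTTGAA was in 1 rather than 12. From 1 replicate's strongest 5501 regions alone, 7 genes had a summit, 4 to 5 had one near a start, 29 to 35 summits and 9 related genes were counted, and the density from all regions of 1 replicate was 1.8 to 2.2 per kb. In replicate 1 alone let-418 gained a region and chd-3 had none. The cause was not tested, beyond what fewer or more regions give by construction. The rank of the highest signal has another unit and is given in the report. No paired analysis was possible because there is 1 group. Depth is unknown, and its part in which regions fall below the threshold, as at let-418, was not tested.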

Other observations

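Other genes with many thresholded summits inside them or within 2 kb were listed after their values were seen. After nurf-1 with 15 and egl-27 with 12, ppfr-1 had 11, din-1, lin-14 and vhp-1 had 10 each, W06H8.6 and pkg-2 had 9 each, and hlh-30 and let-607 had 8 each. The median signal was 107 at nurf-1 and 96.1 at egl-27, against 230 at ppfr-1, 100.5 at din-1, 101 at lin-14 and 112 at vhp-1. The nurf-1 maximum of 1563 was above that of each of the others, of which the highest was 515 at W06H8.6. In the pooled list lin-14, a regulator of larval timing, had 43 regions, against 37 at nurf-1 and 30 at egl-27.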
